A study of Mus musculus with 8 samples.

Results

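The replication-dependent histone genes supply the H1, H2A, H2B, H3 and H4 proteins that package newly copied DNA. They were followed here in RAW 264.7, a macrophage-like line derived from BALB/c mice, kept for 6 h with Bacillus clausii (3 arrays), Bifidobacterium bifidum (3 arrays) or Lactobacillus acidophilus (2 arrays), each at a multiplicity of infection of 1. Every array set Cy5-labelled RNA of cells given bacteria against Cy3-labelled RNA of time-matched untreated cells, so an array reads treated relative to untreated RNA directly. The labels tie no array to a culture, so the spread behind each p-value is that between arrays and may be technical. Members were the probes, controls aside, of genes whose symbol begins, or began before renaming, with Hist1h, Hist2h, Hist3h or Hist4h. The array files hold transcript accessions and no column of gene symbols, so the symbols came from RefSeq's gene table for GRCm38.p6. This gave 33 genes, among 18751 genes named in this way, with 39 probes among 41174 distinct probes. Of 70 such genes in the table, 37 had no probe named here, and 13690 probes stayed unnamed. The members were 7 probes of H1, 13 of H2A, 9 of H2B, 3 of H3 and 7 of H4. Of the genes, 25 lie on chromosome 13, 5 on chromosome 3, 2 on chromosome 11 and 1 on chromosome 6.

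Histone H1 is the linker that binds DNA between nucleosomes, and the other types form the core around which DNA is wound. Cells make these histones mostly in S phase, when DNA is copied, and the mRNAs end in a stem-loop in place of a poly(A) tail. Slbp binds that stem-loop, and Npat, Casp8ap2, Lsm10 and Lsm11 act in the transcription of these genes or in trimming the mRNA ends. Many of the genes lie in clusters as close copies of each other, so a probe may take up RNA of several copies and the values below belong to probes. Labelling was primed with a T7 promoter primer. Whether the signals came from transcripts with a poly(A) tail was not tested.

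The arrays lay on 2 slides. Slide 2 held B. clausii and B. bifidum replicates 1 and 2, and slide 1 held replicate 3 of each with both L. acidophilus arrays. B. clausii replicate 3 had 12543 probes well above background, against 21508 to 26473 on the other arrays. Taken over the probes tested, log2 ratios of the same strain correlated at 0.86 to 0.88 within slide 2 and at -0.01 to 0.02 between the slides, where probes are not independent of each other. Dyes were never swapped, so an effect of the dye and an effect of the bacteria cannot be told apart in ratios against untreated cells. Fewer cells of a type and less RNA per cell cannot be told apart either. Macrophage markers were well above background in Cy5 on all arrays for 10 of 10 genes, and markers of lymphocytes (0 of 7), fibroblasts (0 of 6), epithelium (0 of 5) and neutrophils (0 of 5) for none. In Cy3 the counts were 9 of 10 for macrophages, 1 of 5 for neutrophils (S100a8) and 0 for the other lists.

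Histone ratios lay mostly below those of other probes, by an amount that differed between histone types. Of the 39 member probes, 35 were tested because the scanner software called 1 or both channels well above background on 2 or more arrays, among 28598 probes in all. The probes of Hist1h2ac, Hist1h2be and Hist3h2ba and probe A_51_P148860 of Hist4h4 were not. The median log2 ratio of the tested members was -0.43, -0.42 and -0.22 on the B. clausii arrays, -0.19, -0.15 and -0.24 on the B. bifidum arrays and -0.17 and -0.26 on the L. acidophilus arrays. The median of all probes lay between -0.03 and 0.02 on every array. Of the 33 members with a value on every array, 14 were below 0 on all 8, against 5.74% of all probes, and 0 were above 0 on all 8, against 4.63%. Those 14 were 7 of 10 H2A probes, 4 of 6 H4 probes and 3 of 7 H1 probes, with 0 of 7 H2B probes and 0 of 3 H3 probes.

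**Figure D1:**
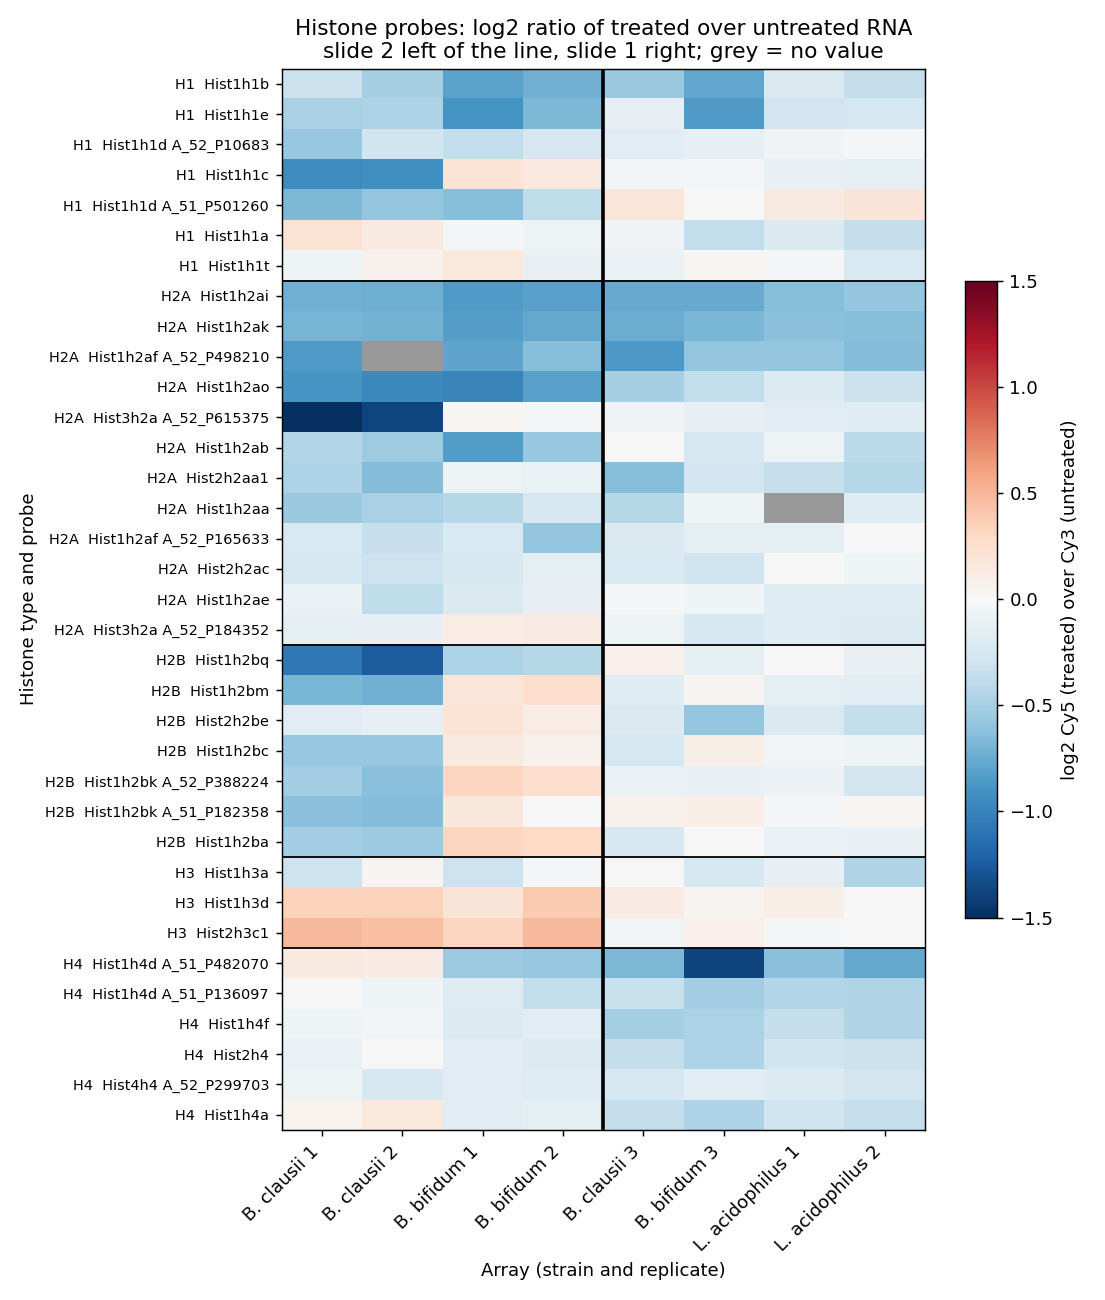
Log2 ratio of treated (Cy5) over untreated (Cy3) RNA for the 35 tested histone probes (down the page, by type) on the 8 arrays (across, slide 2 left of the line and slide 1 right); grey marks no value. The H2A block lies mostly below 0 on both slides, and H2B lies lowest on the slide 2 arrays of B. clausii, with medians of -0.57 and -0.62 there.

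The scaling bears on these directions. The values come from a loess fit within each array, which takes out a trend of the ratio with brightness. With each array only centred on its median, the median of all probes was -0.13 with B. clausii, -0.22 with B. bifidum and 0.09 with L. acidophilus. That of the members was then -0.69 with B. clausii, -0.66 with B. bifidum and 0.05 with L. acidophilus, which lay below the median of all probes by 0.55, 0.43 and 0.04. The direction of the members' median with L. acidophilus thus turned, since after loess it was -0.20. With median centring 2 of 11 H2A probes were below 0 on L. acidophilus replicate 1 (median 0.10) and 8 of 12 on replicate 2 (median -0.16). On the B. clausii and B. bifidum arrays every H2A probe with a value stayed below 0.

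H2A, which pairs with H2B in the nucleosome, held most of the members that fell over all arrays. With B. clausii 8 members fell and 0 rose at an adjusted p under 0.05 (limma, Benjamini-Hochberg over all probes), against 1.18% of all probes called in either direction and 0.64% lower. They were 6 of 12 H2A probes, 1 of 7 H1 probes and 1 of 7 H2B probes. With B. bifidum 6 members fell and 0 rose, against 1.65% of all probes called in either direction and 1.26% lower, and they were 4 of 12 H2A probes and 2 of 7 H1 probes. The median log2 ratio of H2A was -0.54 with B. clausii and -0.29 with B. bifidum, and all 12 H2A probes were below 0 with each strain. The probes that fell with both were Hist1h2ai, Hist1h2ak, Hist1h2ao, probe A_52_P498210 of Hist1h2af and, of H1, Hist1h1b.

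The H2A gene Hist1h2ai had log2 ratios of -0.72, -0.74 and -0.76 with B. clausii, -0.85, -0.82 and -0.76 with B. bifidum and -0.63 and -0.59 with L. acidophilus. All 8 values lay in a narrow band below 0, on both slides. It fell by 0.74 ± 0.06 with B. clausii (1.67-fold lower than in untreated cells, SE, n = 3, limma adjusted p = 0.00614) and by 0.81 ± 0.06 with B. bifidum (1.75-fold lower, SE, n = 3, adjusted p = 0.00267). With L. acidophilus it was at -0.61 ± 0.08 (SE, n = 2), which did not pass (limma adjusted p = 0.155). Hist1h2ak, another H2A gene, was at -0.69, -0.71 and -0.75 with B. clausii, -0.83, -0.76 and -0.69 with B. bifidum and -0.63 and -0.64 with L. acidophilus. The same narrow band held on all arrays. It fell by 0.72 ± 0.06 with B. clausii (adjusted p = 0.00614) and by 0.76 ± 0.06 with B. bifidum (adjusted p = 0.00431).

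Probe A_52_P498210 of the H2A gene Hist1h2af gave -0.85 and -0.86 on the 2 B. clausii arrays with a value, -0.79, -0.64 and -0.59 with B. bifidum and -0.58 and -0.65 with L. acidophilus. It fell by 0.85 ± 0.09 with B. clausii (adjusted p = 0.0261) and by 0.67 ± 0.07 with B. bifidum (adjusted p = 0.0108). The gene's other probe, A_52_P165633, was at -0.22, -0.34 and -0.22 with B. clausii, -0.23, -0.59 and -0.14 with B. bifidum and -0.13 and -0.01 with L. acidophilus, and it did not pass over all arrays. The 2 probes of the gene thus shared the side of 0 and not the size. Hist1h2ao was at -0.88, -0.97 and -0.50 with B. clausii, -0.99, -0.81 and -0.36 with B. bifidum and -0.20 and -0.32 with L. acidophilus. Its slide 2 values lay below every slide 1 value. It fell by 0.78 ± 0.13 with B. clausii (adjusted p = 0.0418) and by 0.72 ± 0.13 with B. bifidum (adjusted p = 0.0319). The untreated spots of Hist1h2ao and of Hist1h2af A_52_P165633 were saturated on 3 of the 4 slide 2 arrays, so their ratios there are upper bounds.

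A further pair of H2A probes passed with B. clausii and not with B. bifidum. Hist2h2aa1, from the cluster on chromosome 3, was at -0.46, -0.65 and -0.64 with B. clausii, -0.08, -0.09 and -0.29 with B. bifidum and -0.34 and -0.43 with L. acidophilus. The B. clausii values lay below those of the other strains, and the probe fell by 0.58 ± 0.07 with B. clausii (adjusted p = 0.0358). Hist1h2aa, known as a testis form of H2A, was at -0.56, -0.49 and -0.43 with B. clausii and at -0.43, -0.25 and -0.07 with B. bifidum, and it fell by 0.49 ± 0.08 with B. clausii (adjusted p = 0.0464). Its untreated spot was saturated on all 4 slide 2 arrays, so its ratios there are upper bounds, the fall is at least of this size and the strains cannot be compared in size. The mean log2 Cy3 of this probe on slide 2, 15.91, was the highest of the members. Whether the probe took up RNA of other H2A copies was not tested. The difference between B. clausii and B. bifidum over all arrays did not pass for Hist2h2aa1 (limma adjusted p = 0.281). Of the other H2A probes, Hist1h2ab, Hist1h2ae, Hist2h2ac and probe A_52_P184352 of Hist3h2a ran from -0.84 to 0.12 over the arrays and did not pass.

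With L. acidophilus 0 of 35 members passed in limma, as did 0% of all probes, and the smallest adjusted p of a member was 0.155. At an unadjusted p under 0.05 there were 14 members and 2312 probes in all. The 14 included 6 of 6 H4 probes and 4 of 12 H2A probes. With the slide as a block 4 H2A probes passed, all lower, against 1.4% of all probes (0.822% lower). Both L. acidophilus arrays lay on slide 1, so this fit sets the strain at the mean of the slides with a slide effect measured in the other strains, and the H2A median moved to -0.39, against -0.21 without the block. The 4 probes were Hist1h2ai, Hist1h2ak, Hist1h2ao and Hist1h2af A_52_P498210. Of members above 0 with L. acidophilus, the smallest p belonged to the H1 probe A_51_P501260 of Hist1h1d (0.13 and 0.20) and to Hist1h3d, an H3 gene (0.09 and 0.00), neither passing.

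Single arrays set the size of these counts. Without B. clausii replicate 3, the array with the fewest probes above background, 22 members passed with B. clausii (2 higher and 20 lower), against 30.4% of all probes, and 10 with B. bifidum (0 higher and 10 lower), against 6.72%. Without B. clausii replicate 1 or 2 the count with B. clausii was 0, against 0% of all probes. Without B. bifidum replicate 1 or 2 the count with B. bifidum was 0, against 0.0035%. With B. clausii it was also 2 without either L. acidophilus array or without B. bifidum replicate 2, against 0.021% of all probes each, and without B. bifidum replicate 1, against 0.0245%. Same-numbered B. clausii and B. bifidum arrays share a slide, and whether the numbers pair them in any other way is not known. With the replicate number as a block 23 members passed with B. clausii (2 higher and 21 lower), against 22.4% of all probes, and 16 with B. bifidum (1 higher and 15 lower), against 11%. The count with L. acidophilus was 9 (0 higher and 9 lower), against 2.64%, in a fit that takes the effect of the number it lacks from the other strains. With the slide as a block 2 rose and 22 fell with B. clausii, against 18.8% of all probes (7.65% higher and 11.1% lower), and 1 rose and 13 fell with B. bifidum, against 10.1% (2.72% higher and 7.41% lower). Between these strains 1 member was then higher and 1 lower with B. clausii, against 0.759%.

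The promoters of Hist1h2af, Hist1h2ai and Hist1h2ak are shown because, after loess, a probe of each of these H2A genes was below untreated cells on every array with a value. They are the 250 bases before the RefSeq start on chromosome 13 of GRCm38.p6, at chr13:23533625-23533874 (plus strand), chr13:21716162-21716411 (plus strand) and chr13:21753913-21754162 (minus strand). Each is written 5′ to 3′ on the gene's own strand. Capitals mark CCAAT, the box bound by the factor NF-Y, on either strand.
Hist1h2af: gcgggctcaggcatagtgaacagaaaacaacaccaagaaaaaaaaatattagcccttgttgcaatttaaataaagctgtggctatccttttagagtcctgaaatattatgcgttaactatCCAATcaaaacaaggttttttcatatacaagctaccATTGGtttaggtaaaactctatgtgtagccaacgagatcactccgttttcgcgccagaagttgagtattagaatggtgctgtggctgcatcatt
Hist1h2ai: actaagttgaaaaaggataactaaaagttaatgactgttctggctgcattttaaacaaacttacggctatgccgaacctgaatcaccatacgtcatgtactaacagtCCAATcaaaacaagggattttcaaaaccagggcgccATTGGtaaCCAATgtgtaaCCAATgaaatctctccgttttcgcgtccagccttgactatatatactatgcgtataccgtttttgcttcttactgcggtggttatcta
Hist1h2ak: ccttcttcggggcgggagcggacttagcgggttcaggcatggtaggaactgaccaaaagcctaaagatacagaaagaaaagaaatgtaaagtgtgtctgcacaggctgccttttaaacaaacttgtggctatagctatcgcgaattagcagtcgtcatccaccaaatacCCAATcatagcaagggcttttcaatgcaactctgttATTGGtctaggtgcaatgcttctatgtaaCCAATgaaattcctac
They held 2, 4 and 3 CCAAT matches. Each window has a CCAAT on the gene's strand and, the same distance further on in all 3, one on the other strand. These start 130 and 94 bases before the start in Hist1h2af, 143 and 107 in Hist1h2ai and 81 and 45 in Hist1h2ak. Promoters were found for 29 of the 33 genes. CCAAT on either strand was in 26 of the 29 (89.7%), against 33.8% of all 32851 promoters of this length, and in 11 of 11 H2A, 6 of 6 H2B, 6 of 6 H1, 1 of 2 H3 and 2 of 4 H4 promoters. TATAAA, the TATA box, was in 15 of 29 (51.7%), against 12.4% of all. A match is a stretch of letters and not a shown binding site. Some windows also reach past the start of a neighbouring gene on the other strand, as given below.

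**Figure D2:**
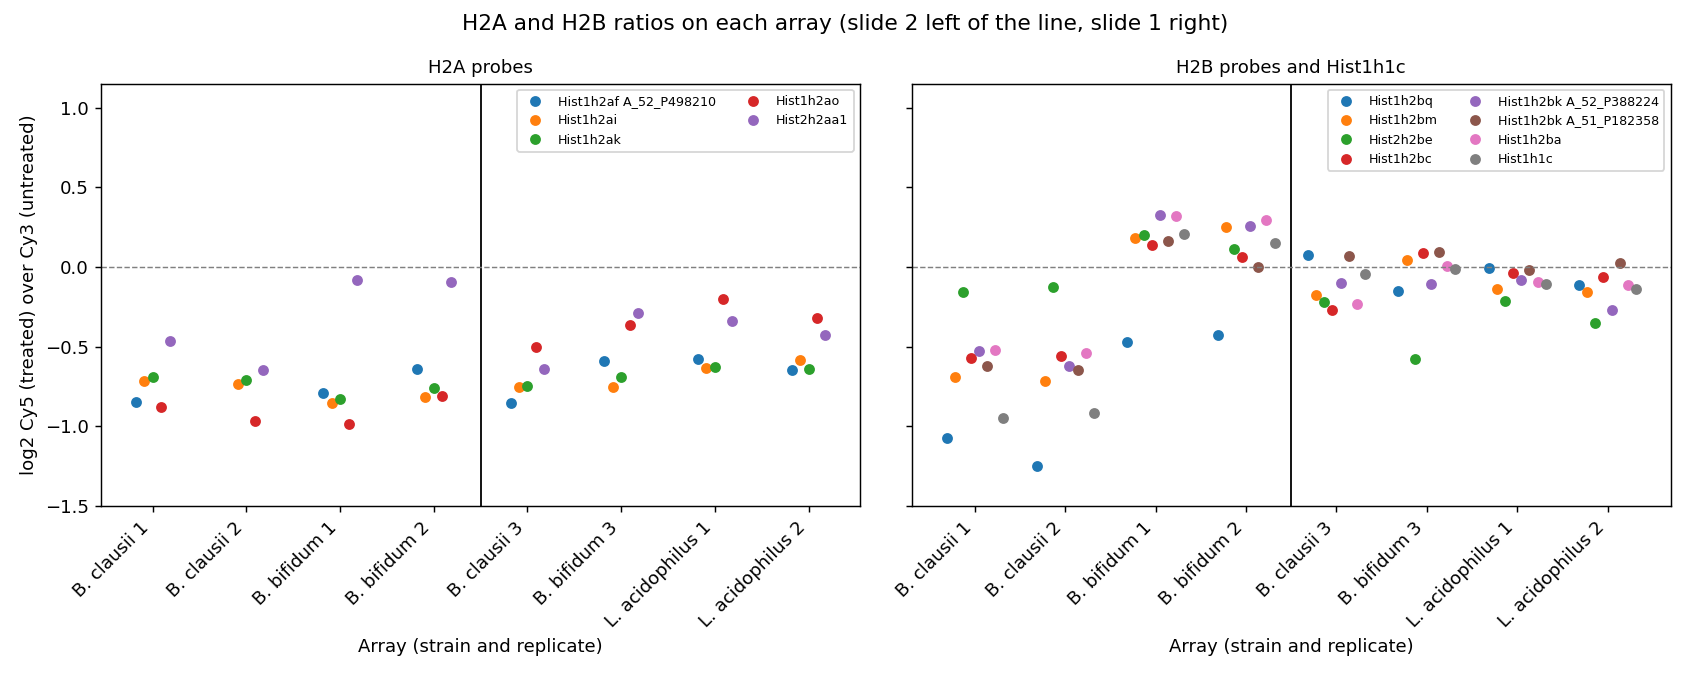
Log2 ratio of treated over untreated RNA on each array (slide 2 left of the line, slide 1 right) for 5 H2A probes (left panel) and for the 7 H2B probes with Hist1h1c (right panel); points are single arrays. Hist1h2ai and Hist1h2ak stay between -0.85 and -0.59 on all arrays, and, probe by probe, the H2B points of B. clausii lie below those of B. bifidum on slide 2. The mean difference of each H2B probe there was also below 0 without background correction, with the processed signals and with median centring.

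H2B, the partner of H2A, was the type in which B. clausii and B. bifidum stood furthest apart on slide 2 by the median. Within that slide, with 2 arrays a strain, the difference between the strains passed for 12 members, 2 higher and 10 lower with B. clausii, against 20.5% of all probes (10.3% higher and 10.2% lower). All 7 H2B probes were among the 10. The median difference of H2B was -0.71, against 0.01 for all probes. Both B. clausii arrays lay below both B. bifidum arrays for 13 of 34 members, against 29.1% of all probes, and above them for 11, against 30.6%. The 13 included 7 of 7 H2B probes. The 11 included 5 of 6 H4 probes, and the median difference of H4 was 0.19, with 1 of 6 passing. Both counts over all members were therefore not far from the background, while each H2B probe lay below. Over all 8 arrays the same difference passed for 0 of 35 members, against 0.0175% of all probes, and limma counted 11 members and 3003 probes at an unadjusted p under 0.05. Without B. clausii replicate 3 it passed for 9 members, 1 higher and 8 lower, against 9.65% of all probes, and without B. bifidum replicate 3 for 1, against 2.13%.

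All 7 H2B probes were also lower with B. clausii than with B. bifidum on slide 2 under 3 other treatments of the signals. The medians were -0.76 without background correction, -0.93 with the processed signals and -0.56 with median centring. The deposited value table holds the scanner's own ratios and gave nearly the same as the processed signals (-0.92). With the scanner's processed signals, the deposited value table or median centring, 0 members passed in that comparison, as did 0% of all probes (limma). At an unadjusted p under 0.05 there were 13 members and 7024 probes in all with the processed signals. There were 13 and 7032 with the deposited values and 4 and 1416 with median centring, of 28598 probes tested. These scalings of slide 2 alone were added after the data had been seen. On slide 2, 3 H2B probes rose and 1 fell with B. bifidum relative to untreated cells, against 29.7% of all probes called (10.9% higher and 18.9% lower), and with median centring all 7 were below 0 and 2 fell, against 28.6%. With B. clausii 6 of 7 fell on slide 2, against 48.1% of all probes called (27.2% lower), and with median centring 7 of 7, against 22.3%.

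Hist1h2bm, an H2B gene taken to represent the type, was at -0.69 and -0.71 with B. clausii and at 0.18 and 0.25 with B. bifidum on slide 2. The strains did not overlap, and the difference was -0.92 ± 0.07 (SE, n = 2 each, limma adjusted p = 0.00215). On slide 1 it was at -0.18 with B. clausii, 0.04 with B. bifidum and -0.14 and -0.15 with L. acidophilus. Hist1h2ba, known as a testis form of H2B, was at -0.52 and -0.54 with B. clausii and at 0.32 and 0.29 with B. bifidum on slide 2, and at -0.24 with B. clausii, 0.00 with B. bifidum and -0.09 and -0.11 with L. acidophilus on slide 1. The slide 2 difference was -0.84 ± 0.07 (adjusted p = 0.00229). Hist1h2bc was at -0.57, -0.56 and -0.27 with B. clausii, 0.14, 0.06 and 0.09 with B. bifidum and -0.04 and -0.06 with L. acidophilus. Its B. clausii values lay below all others on both slides, and it was the H2B probe that fell with B. clausii over all arrays, by 0.47 ± 0.08 (adjusted p = 0.0422).

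The 2 probes of Hist1h2bk gave like values on slide 2. Probe A_52_P388224 was at -0.53 and -0.62 with B. clausii and at 0.33 and 0.26 with B. bifidum (difference -0.87 ± 0.07, adjusted p = 0.00267). Probe A_51_P182358 was at -0.62 and -0.65 with B. clausii and at 0.16 and 0.00 with B. bifidum (difference -0.71 ± 0.08, adjusted p = 0.00493). On slide 1 both probes lay between -0.11 and 0.09 with these strains. Hist2h2be had the smallest difference of the H2B probes, -0.30 ± 0.07 (adjusted p = 0.0392), with -0.16 and -0.12 with B. clausii and 0.20 and 0.11 with B. bifidum. Hist1h2bq had the lowest mean ratio of the type over the arrays. It was at -1.08 and -1.25 with B. clausii and at -0.47 and -0.43 with B. bifidum on slide 2, and between -0.15 and 0.07 on slide 1. On those B. clausii arrays its Cy5 spot was not well above background, so untreated cells were at least 2.07-fold higher (measured log2 means 6.31 in treated and 7.48 in untreated cells, limma adjusted p = 0.000255). Its measured mean ratio on slide 2 was -0.45 with B. bifidum and -1.16 with B. clausii (limma adjusted p of the measured difference = 0.00516). Cy5 was well above background on 1 of 2 B. bifidum arrays and 0 of 2 B. clausii arrays, so the size of this difference is not known.

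The promoters of Hist1h2bk and Hist1h2bm are shown beside those of H2A because both genes differed between the strains on slide 2. They lie at chr13:22035571-22035820 and chr13:21721794-21722043 of GRCm38.p6, both on the plus strand, and are written 5′ to 3′ from RefSeq. Capitals mark the CCAAT box, the TATA box (TATAAA) and the octamer on either strand. ATTTGCAT is the octamer known from H2B promoters.
Hist1h2bk: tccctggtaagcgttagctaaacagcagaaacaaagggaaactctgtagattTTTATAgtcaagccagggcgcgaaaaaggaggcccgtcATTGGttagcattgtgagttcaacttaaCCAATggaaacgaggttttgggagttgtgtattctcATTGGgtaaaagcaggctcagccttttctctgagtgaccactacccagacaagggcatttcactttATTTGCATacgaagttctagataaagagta
Hist1h2bm: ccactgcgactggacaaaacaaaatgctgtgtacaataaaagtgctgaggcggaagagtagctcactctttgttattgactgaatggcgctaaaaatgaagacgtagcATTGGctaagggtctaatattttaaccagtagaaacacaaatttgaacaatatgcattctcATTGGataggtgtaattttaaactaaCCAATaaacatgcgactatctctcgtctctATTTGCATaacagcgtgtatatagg
Both have 1 octamer, which starts 30 bases before the start in Hist1h2bk and 25 in Hist1h2bm, and 3 CCAAT matches. The octamer was in 9 of 29 histone promoters (31%), against 1.6% of all promoters. It was in 6 of 11 H2A and 3 of 6 H2B promoters, and in 0 of 6 H1, 0 of 2 H3 and 0 of 4 H4 promoters. These counts belong to windows, which can hold sequence of a head-to-head neighbour, and do not assign a match to H2A or H2B. TATAAA in Hist1h2bk starts 198 bases before the start, on the other strand and past the start of its neighbour. The 3 H2A promoters printed above hold no octamer in this window. No searched motifs overlapped in the 5 promoters shown.

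H2A and H2B genes often lie head to head and share the stretch between their starts. RefSeq gave 6 such pairs with a measured gene, and both genes were measured in 2. Hist1h2ao (H2A) and Hist1h2bq (H2B) have 168 bases between their starts. Hist1h2aa (H2A) and Hist1h2ba (H2B) have 281 bases between their starts. On slide 2 the measured ratio of the H2B gene of each pair was lower with B. clausii than with B. bifidum, as given above. The untreated spots of the H2A genes were saturated there, on 3 of 4 arrays for Hist1h2ao and on 4 of 4 for Hist1h2aa, so the sides of a pair could not be compared.

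**Figure D3:**
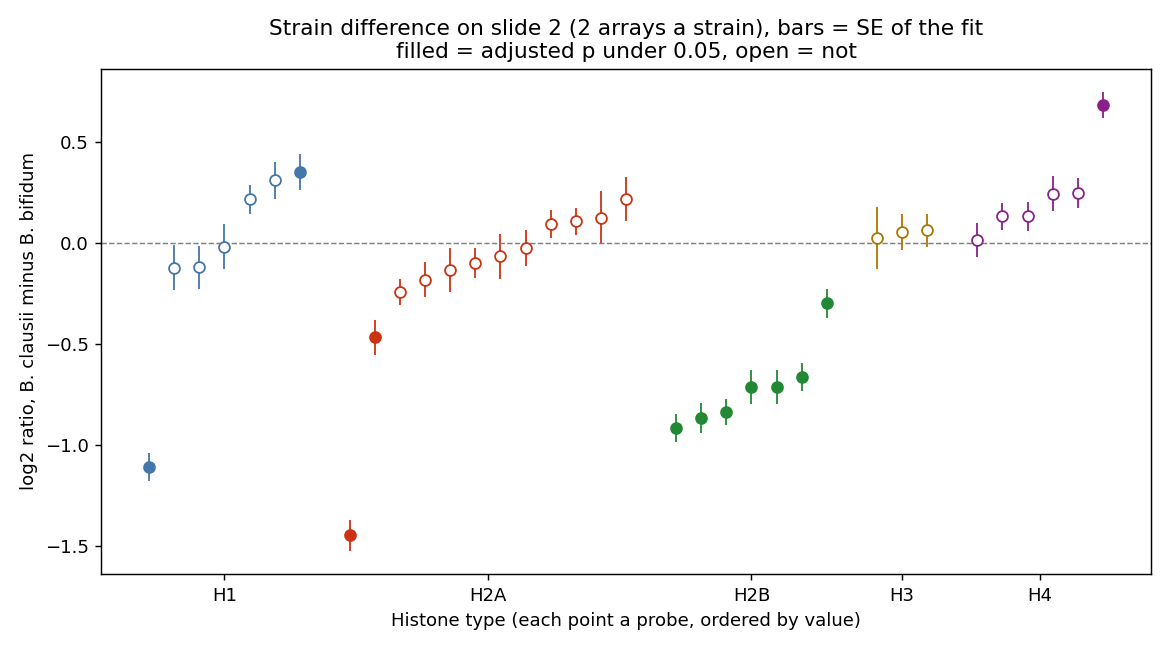
Difference in log2 ratio, B. clausii minus B. bifidum, on slide 2 for each tested histone probe by type (2 arrays a strain; bars are the SE of the fit; filled points passed at an adjusted p under 0.05). All 7 H2B points are filled (that of Hist1h2bq from treated spots not well above background with B. clausii) and lie between -0.92 and -0.30. They were also below 0 without background correction, with the processed signals and with median centring. With median centring, the processed signals or the deposited values 0 members passed.

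The strain difference on slide 2 minus that on slide 1 passed for 8 members, all lower, against 10.6% of all probes (5.99% lower). They were 6 of 7 H2B probes, the H1 gene Hist1h1c and probe A_52_P615375 of the H2A gene Hist3h2a. The median of H2B in this contrast was -0.69, against 0.01 for all probes. The other H2B probe, Hist1h2bc, was at -0.31 ± 0.11 (limma adjusted p = 0.137). The contrast was added after the data had been seen, and it rests on B. clausii replicate 3 and B. bifidum replicate 3 as the lone slide 1 arrays of these strains. Leaving out one other array gave 2 to 7 calls, with 2 without B. bifidum replicate 1, against 3.08% of all probes, and 4 without B. clausii replicate 1, against 4.24%. There were 3 without B. clausii replicate 2, against 4.71%, and 3 without B. bifidum replicate 2, against 3.66%. Median centring gave 0 calls, against 0% of all probes, and the processed signals 1, against 4.42%.

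Macrophage markers moved beside this difference. On slide 2, 6 of 10 were lower with B. clausii than with B. bifidum and 0 were higher, against 10.2% and 10.3% of all probes, with a list median of -0.44. With median centring, the processed signals or the deposited values 0 of the 10 passed, and the list median ran from -0.54 to -0.15. They included Lyz2, which encodes lysozyme (-1.02), and Mpeg1, which encodes a pore-forming protein (-1.28). The contrast between slides passed for 3 of the 10, all lower. The markers' part in the H2B result was not tested.

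The linker histones split. Hist1h1b was at -0.32, -0.49 and -0.56 with B. clausii, -0.80, -0.72 and -0.78 with B. bifidum and -0.21 and -0.35 with L. acidophilus. Every value lay below 0, and those of B. bifidum lay below all others. It fell by 0.46 ± 0.07 with B. clausii (adjusted p = 0.0418) and by 0.77 ± 0.07 with B. bifidum (adjusted p = 0.0069), and was not well above background on the array of B. clausii replicate 3. Hist1h1e was at -0.49, -0.46 and -0.12 with B. clausii, -0.90, -0.68 and -0.85 with B. bifidum and -0.29 and -0.26 with L. acidophilus. Again the B. bifidum values lay below all others, and it fell with B. bifidum by 0.81 ± 0.09 (adjusted p = 0.00916). B. clausii minus B. bifidum was 0.45 ± 0.12 for Hist1h1e and 0.31 ± 0.10 for Hist1h1b over all arrays, neither passing (limma adjusted p = 0.321 and 0.36). On slide 2 it was 0.35 ± 0.09 for Hist1h1b (adjusted p = 0.0446) and 0.31 ± 0.09 for Hist1h1e (adjusted p = 0.0766).

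Hist1h1c differed between the strains in the other direction. It was at -0.95 and -0.92 with B. clausii and at 0.20 and 0.15 with B. bifidum on slide 2, a difference of -1.11 ± 0.07 (limma adjusted p = 0.00175). On slide 1 it was at -0.04 with B. clausii, -0.02 with B. bifidum and -0.11 and -0.14 with L. acidophilus, where the strains lay together. Probe A_51_P501260 of Hist1h1d was at -0.67 and -0.58 with B. clausii and -0.64 and -0.38 with B. bifidum on slide 2, and between 0.00 and 0.20 on slide 1. The gene's other probe, A_52_P10683, was below 0 on all arrays, from -0.57 to -0.02. Hist1h1a ran from -0.37 to 0.21. Hist1h1t, a testis form of H1, ran from -0.23 to 0.15 and was well above background in Cy3 on 3 arrays.

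Hist3h2a, an H2A gene outside the large clusters, had 2 probes that differed in size. Probe A_52_P615375 was at -1.51 and -1.38 with B. clausii and at 0.03 and -0.02 with B. bifidum on slide 2 (difference -1.45 ± 0.08, limma adjusted p = 0.00149). Probe A_52_P184352 was at -0.13 and -0.12 with B. clausii and at 0.11 and 0.12 with B. bifidum (difference -0.24 ± 0.07, adjusted p = 0.0564). Both were well above background in both channels on all arrays. On slide 1 both lay between -0.24 and -0.06 with every strain.

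H3 and H4 form the inner core of the nucleosome, and 5 of their 9 tested probes differed between the slides after loess. The ratio differed between slides, with strain in the model, for 10 members, 6 higher and 4 lower on slide 2, against 20.9% of all probes (7.64% higher and 13.2% lower). The 6 were 4 of 6 H4 probes, 1 of 3 H3 probes and Hist1h1a, and the median of H4 was 0.33, against -0.02 for all probes. For 7 of 33 members all slide 2 ratios lay above all slide 1 ratios, against 10.1% of all probes, and for 6 they lay below, against 17.9%. The 7 were 4 H4 probes, 2 H3 probes and Hist2h2be. With median centring the median of all probes in this comparison was -0.18 and that of the members -0.56, and the slide difference turned sign for Hist1h4a, Hist1h4f, Hist2h4 and Hist2h3c1.

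Hist1h4f, an H4 gene taken to represent the type, was at -0.07 and -0.04 with B. clausii and -0.21 and -0.17 with B. bifidum on slide 2. On slide 1 it was at -0.51 with B. clausii, -0.47 with B. bifidum and -0.36 and -0.45 with L. acidophilus. The slides did not overlap, with slide 2 above slide 1 by 0.37 ± 0.08 (limma adjusted p = 0.015), and by -0.26 with median centring. Hist1h4a was at 0.05 and 0.15 with B. clausii and -0.16 and -0.13 with B. bifidum on slide 2, against -0.46 to -0.29 on slide 1 (0.39 ± 0.08, adjusted p = 0.0126, and -0.16 with median centring). Hist2h4 ran from -0.20 to -0.01 on slide 2, against -0.46 to -0.30 on slide 1 (0.29 ± 0.07, adjusted p = 0.0284, and -0.27 with median centring). All 3 thus kept the slides apart after loess, in a direction that the other scaling turned.

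Probe A_51_P482070 of the H4 gene Hist1h4d was at 0.13 and 0.12 with B. clausii and -0.55 and -0.57 with B. bifidum on slide 2. On slide 1 it was at -0.67 with B. clausii, -1.38 with B. bifidum and -0.63 and -0.77 with L. acidophilus. B. clausii lay above B. bifidum on each slide, and slide 2 above slide 1 for both strains. The slide difference was 0.81 ± 0.08 (adjusted p = 0.000795), and 0.38 with median centring, which did not pass (limma adjusted p = 0.298). The strain difference on slide 2 was 0.69 ± 0.07 (adjusted p = 0.00331). The gene's other probe, A_51_P136097, ran from -0.52 to -0.01, and probe A_52_P299703 of Hist4h4 from -0.28 to -0.08.

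Hist2h3c1, an H3 gene taken to represent the type, was at 0.49 and 0.45 with B. clausii and 0.32 and 0.48 with B. bifidum on slide 2. On slide 1 it was at -0.04 with B. clausii, 0.08 with B. bifidum and -0.03 and 0.00 with L. acidophilus. The slides did not overlap, with a difference of 0.42 ± 0.09 (limma adjusted p = 0.0126), and -0.30 with median centring. Hist1h3d was at 0.35 and 0.35 with B. clausii and 0.19 and 0.40 with B. bifidum on slide 2, and between 0.00 and 0.12 on slide 1. On slide 2 alone both probes rose with each of these strains (adjusted p = 0.00228 to 0.0223), whereas with median centring the H3 median there was -0.09 with B. clausii and -0.61 with B. bifidum. Hist1h3a ran from -0.45 to 0.04 and did not pass.

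**Figure D4:**
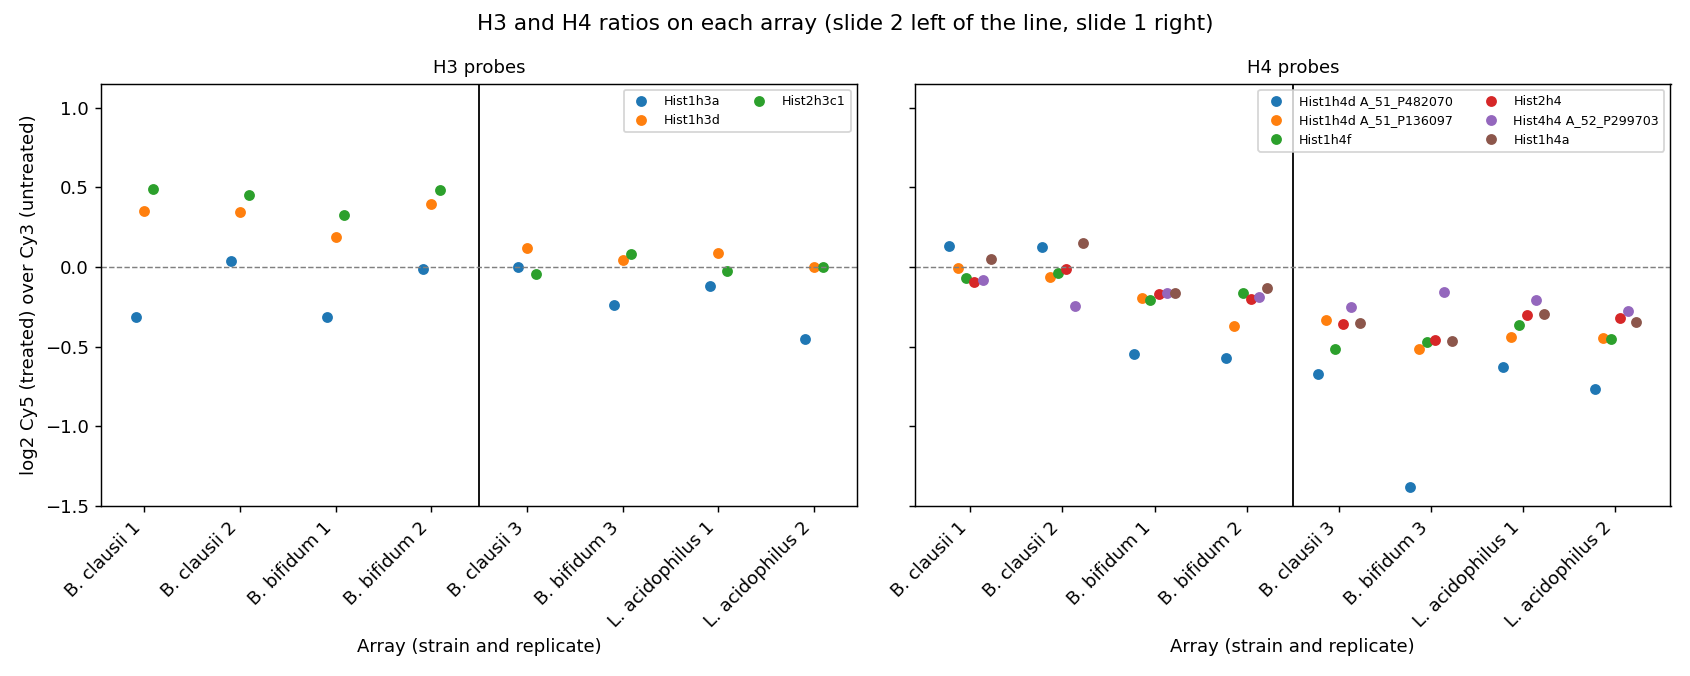
Log2 ratio of treated over untreated RNA on each array for the 3 H3 probes (left panel) and the 6 H4 probes (right panel), slide 2 left of the line and slide 1 right; points are single arrays. Most H4 points lie lower on slide 1, the lowest being Hist1h4d A_51_P482070 with B. bifidum replicate 3 (-1.38); with median centring the slide difference turned sign for Hist1h4a, Hist1h4f, Hist2h4 and Hist2h3c1.

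The 4 members with lower ratios on slide 2 were Hist1h2bq (-0.77 ± 0.18, limma adjusted p = 0.022), Hist1h1d A_51_P501260 (-0.66 ± 0.11, adjusted p = 0.00492), Hist1h2ao (-0.48 ± 0.09, adjusted p = 0.00851) and Hist1h2ab (-0.47 ± 0.12, adjusted p = 0.0237). Hist1h2ab was at -0.43 and -0.53 with B. clausii and -0.84 and -0.57 with B. bifidum on slide 2, and at 0.00 with B. clausii, -0.25 with B. bifidum and -0.07 and -0.39 with L. acidophilus on slide 1. The slides did not overlap for any of the 4. The measured differences of Hist1h2bq and Hist1h2ao are not exact, since on slide 2 the treated spot of Hist1h2bq was not well above background on 3 of 4 arrays and the untreated spot of Hist1h2ao was saturated on 3 of 4. Hist1h1a was higher on slide 2 by 0.28 ± 0.08 (adjusted p = 0.0462), with slides that overlapped. For Hist1h2ai and Hist1h2ak the slide difference was -0.02 ± 0.08 and -0.03 ± 0.08. Leaving out one array gave 7 to 15 calls, with 15 without B. bifidum replicate 3, against 29.9% of all probes.

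The Cy3 signal of untreated cells differed between slides for some of the same genes. Log2 Cy3 intensity, quantile-normalized across arrays, was higher on slide 2 for 6 members and lower for 1, against 24.5% of all probes called (13.8% higher and 10.7% lower), so the share of members was near the background. The 6 were 3 H2A and 3 H1 probes, and the 1 was an H2B probe. The median difference was 0.56 for H2A and -0.39 for H2B, against 0.02 for all probes. For 7 of 33 members all slide 2 arrays lay above all slide 1 arrays, against 19.1% of all probes, and for 3 below, against 15.6%.

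Hist1h2ai had a log2 Cy3 intensity of 12.08, 12.17, 12.15 and 12.23 on slide 2, against 10.60, 11.11, 11.10 and 11.00 on slide 1. The slides did not overlap, and the difference was 1.21 ± 0.13 (SE, n = 4 each, limma adjusted p = 0.000533). Hist1h2ak had 13.10, 13.05, 13.09 and 13.07 on slide 2, against 11.71, 11.98, 12.11 and 12.00 on slide 1 (1.13 ± 0.11, adjusted p = 0.000303). These H2A genes, whose ratios hardly differed between slides, were thus read against untreated signals that did. Hist1h2ao was higher on slide 2 by 0.61 ± 0.13 (adjusted p = 0.0119), with 15.68 to 15.79 on slide 2, where it was partly saturated, against 14.81 to 15.39 on slide 1.

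Hist1h1b had 9.08, 9.07, 9.02 and 8.66 on slide 2, against 8.61, 7.90, 7.78 and 7.77 on slide 1 (0.94 ± 0.21, limma adjusted p = 0.0127). Hist1h1c had 12.23, 12.49, 12.28 and 12.41 on slide 2, against 12.25, 11.27, 11.25 and 11.32 on slide 1 (0.83 ± 0.23, adjusted p = 0.0313). In both H1 genes the slide 1 value nearest to slide 2 was that of B. clausii replicate 3. Hist1h1t was well above background in Cy3 on 3 arrays, none of them on slide 1. Its measured means were 6.86 on slide 2 and 6.52 on slide 1 (limma adjusted p = 0.046), and the size of this difference is not exact. Probe A_51_P182358 of Hist1h2bk was lower on slide 2, at 10.22, 10.30, 10.22 and 10.59, against 11.99, 11.15, 11.18 and 11.14 on slide 1 (-1.03 ± 0.21, adjusted p = 0.00872). Hist1h4f lay between 12.73 and 12.97 on all arrays. Without B. clausii replicate 3, 12 members were higher and 9 lower, against 49.9% of all probes called. Scaled by each array's median 1 member passed, against 7% of all probes, and by its 75th percentile 4, against 8.63%. Culture, labelling, hybridisation and scan, which had an extended range on slide 1, cannot be told apart between the slides.

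**Figure D5:**
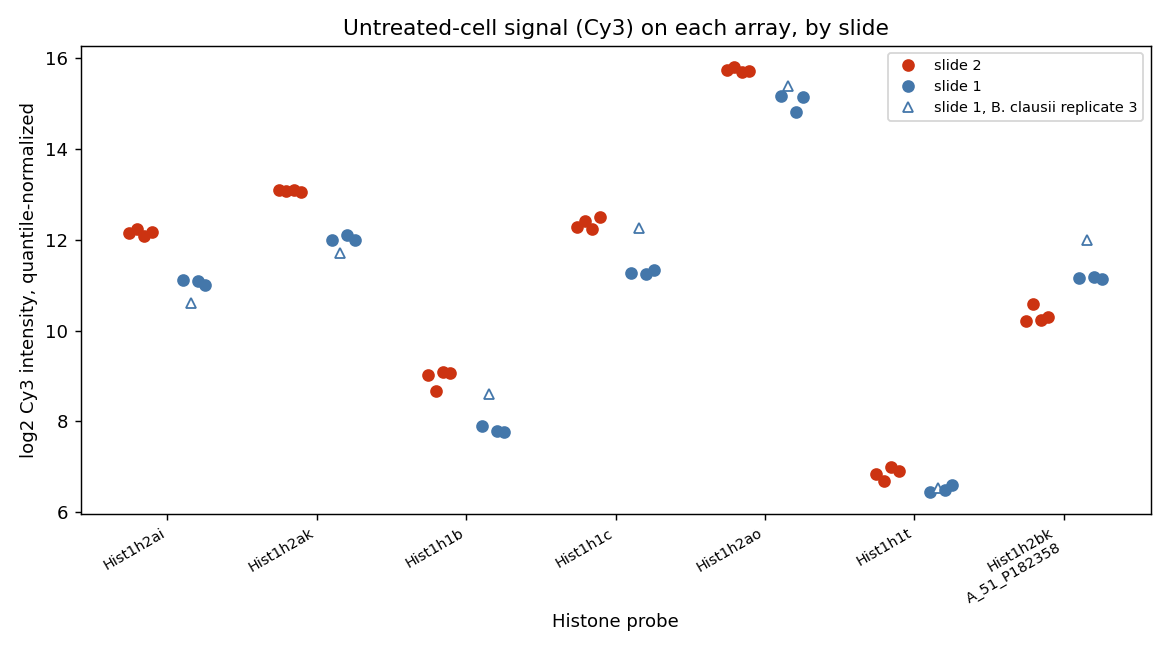
Log2 Cy3 intensity of untreated cells (quantile-normalized) on each array for the 7 histone probes that passed between slides, slide 2 in red left of slide 1 in blue, with B. clausii replicate 3 as an open triangle. Hist1h2ai sits at 12.08 to 12.23 on slide 2 and at 10.60 to 11.11 on slide 1; with each array scaled by its median 1 member passed.

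Of 20 genes that act on histone genes and their mRNA, 1 rose and 0 fell with B. clausii over all arrays, against 1.18% of all probes called. With B. bifidum limma called 0, against 1.65%, and with L. acidophilus 0, against 0%. The gene that rose was Lsm10, of the U7 particle that trims histone mRNA ends (0.47 ± 0.09, adjusted p = 0.0464). Slbp was at 0.03, -0.01 and 0.23 with B. clausii, 0.31, 0.22 and 0.21 with B. bifidum and 0.21 and 0.24 with L. acidophilus, and did not pass over all arrays. Npat was at -0.41, -0.46 and -0.11 with B. clausii, -1.40, -1.06 and -0.02 with B. bifidum and -0.03 and -0.14 with L. acidophilus. Its lowest values were those of B. bifidum on slide 2. There 7 of the 20 genes were higher and 1 lower with B. clausii than with B. bifidum, against 10.3% and 10.2% of all probes, among them Npat (0.80 ± 0.12, adjusted p = 0.0108), Casp8ap2 (0.49 ± 0.08, adjusted p = 0.0142) and Lsm11 (0.43 ± 0.08, adjusted p = 0.0155). Eri1, an exonuclease that trims histone mRNA, was at -0.38 and -0.39 with B. clausii and -0.53 and -0.53 with B. bifidum on slide 2, and between -0.20 and 0.00 on slide 1.

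Of 43 S phase and DNA replication genes, 1 rose with B. clausii, against 1.18% of all probes called, and 2 fell with B. bifidum, against 1.65%. With L. acidophilus limma called 0, against 0%. The gene that rose was E2f2, a transcription factor of S phase genes (0.56, adjusted p = 0.0445). Those that fell were Rfc1 (-0.76, adjusted p = 0.038) and Rfc5 (-0.48, adjusted p = 0.0415), subunits of the clamp loader. The list's median was 0.05 with B. clausii, -0.12 with B. bifidum and -0.03 with L. acidophilus, beside -0.34, -0.23 and -0.20 for the histone probes. Pcna, the replication clamp, was at 0.94, 0.96 and 0.28 with B. clausii, 0.65, 0.77 and -0.02 with B. bifidum and 0.29 and 0.26 with L. acidophilus. It lay higher on slide 2, by 0.70 ± 0.08 (adjusted p = 0.00118). On slide 2, 18 of the 43 were higher and 3 lower with B. clausii than with B. bifidum, against 10.3% and 10.2% of all probes. With median centring, the processed signals or the deposited values, under which 0% of all probes passed in this comparison, 0 of these 43 genes and 0 of the 20 above did so. The median of the 43 was 0.21, and 0.31 to 0.43 under those scalings. Examples were Pola1, of DNA polymerase alpha (1.05), Tyms, which makes thymidylate (1.02), and Prim1, a primase subunit (0.86), with Cdt1, which licenses origins, lower (-0.80).

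Of 24 genes of G2 and mitosis, 1 rose (Ccnb1, a mitotic cyclin, 0.34) and 1 fell (Nusap1, a spindle protein, -0.45) with B. clausii, against 1.18% of all probes called. With B. bifidum limma called 0, against 1.65%, and with L. acidophilus 0, against 0%. Of 14 tested genes of histones made outside S phase, 0 rose and 1 fell with B. clausii and likewise with B. bifidum, against the same shares. In both it was H2afx (H2ax), the variant phosphorylated at DNA breaks, whose mRNA is known in stem-loop and polyadenylated forms. It was at -0.94, -0.91 and -0.43 with B. clausii, -0.75, -0.83 and -0.32 with B. bifidum and -0.32 and -0.37 with L. acidophilus. All 8 values lay below 0, lower on slide 2, with means of -0.76 ± 0.12 with B. clausii (adjusted p = 0.0418) and -0.63 ± 0.12 with B. bifidum (adjusted p = 0.0423). H3f3a, which encodes the replacement histone H3.3, was at 0.86, 0.84 and 0.06 with B. clausii, 0.38, 0.58 and 0.09 with B. bifidum and 0.29 and 0.21 with L. acidophilus, and did not pass over all arrays.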

How the data were processed

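Agilent 2-colour arrays compared Cy5-labelled RNA of RAW 264.7 cells given bacteria with Cy3-labelled RNA of untreated cells, per the labels. The deposited files of each array give intensity of spots and their local background, and processed signals, from Agilent Feature Extraction (version 10.7.3.1 per the file headers, 10.5.1.1 per the submitters' processing notes). The deposited value table matched the scanner's log10 ratio of Cy5 over Cy3 within 0.005, which settles its scale and direction; each column's median was 0. The genome build of the probe annotation was not used.

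From the deposited median intensity, normexp background correction (offset 50), loess within each array and log2 ratios were computed with limma 3.58.1 in R 4.3.3, with control spots left out after correction and spots of a probe averaged. Cy3 was computed from each spot's mean log2 brightness of both channels and its ratio after loess, and then quantile-normalized across arrays. Probes well above background in 1 channel on at least 2 arrays were tested with lmFit and eBayes, Benjamini-Hochberg over all probes. The fit used strain means over all 8 arrays, and the ratio between slides added slide. Cy3 between slides was fitted with slide alone. The strain difference between slides used a mean for each strain on each slide. The scripts were tested on simulated data. The number of arrays limits the precision.

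Accessions named 27484 of 41174 probes through RefSeq (GRCm38.p6). Members and lists were chosen with earlier results of these data known. Values on every array are given for the probe of each type with the highest mean brightness, for members passing each test (at most 6 each way) or, where none passed, the 2 with the smallest p each way, and ranges for the highest and lowest mean ratio of each type. Hist1h2ab, Hist1h2bc and other members outside that rule were named after their values were seen. Same-numbered arrays of B. clausii and B. bifidum share a slide, and their deviations from the strain means correlated at 0.39, 0.26 and 0.45. Same-numbered arrays of L. acidophilus and these strains lay on different slides, at -0.12 to -0.06. These correlations therefore cannot tell a pairing by number from an effect of the slide. Alternatives changed the background correction, signal, normalization, filter, variance model, blocks and arrays used.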

Additional observations from a re-analysis of the deposited data

Results flagged for a closer look

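In untreated cells 8 results had an array far from the others of its slide, of 22 slide groups checked over 11 members, and 6 of the 8 were the Cy3 channel of B. clausii replicate 3. The critical value marks about 1 in 20 groups by chance, and groups that share an array are not independent. On slide 1 that array's log2 Cy3 intensity was 12.25 for Hist1h1c, against 11.25 to 11.32 on the others, 8.61 for Hist1h1b, against 7.77 to 7.90, and 11.99 for Hist1h2bk A_51_P182358, against 11.14 to 11.18. It was 13.58 for Hist1h2af A_52_P165633, against 15.47 to 15.78, 12.29 for Hist1h2bm, against 13.15 to 13.19, and 13.93 for Hist2h3c1, against 15.29 to 15.54. On slide 2 the array of B. bifidum replicate 2 stood at 12.28 for Hist1h2bm, against 12.47 to 12.49, and at 8.66 for Hist1h1b, against 9.02 to 9.08.

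The difference between B. clausii and B. bifidum itself differed between the slides (limma, slide 2 minus slide 1) for 8 members, with 1 array a strain on slide 1. It was -1.51 for Hist3h2a A_52_P615375 (adjusted p = 0.00538), -1.08 for Hist1h1c (adjusted p = 0.00711), -0.94 for Hist1h2bq (adjusted p = 0.0168, with treated spots not well above background on 3 of 4 slide 2 arrays) and -0.87 for Hist1h2bk A_52_P388224 (adjusted p = 0.0216). It was -0.70 for Hist1h2bm (adjusted p = 0.0176), -0.69 for Hist1h2bk A_51_P182358 (adjusted p = 0.0296), -0.66 for Hist2h2be (adjusted p = 0.0327) and -0.60 for Hist1h2ba (adjusted p = 0.0223).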

How the results depend on the processing

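Over all arrays 8 members passed with B. clausii, 6 with B. bifidum, 0 with L. acidophilus, 0 between B. clausii and B. bifidum, 10 for the ratio between slides, 7 for Cy3 between slides and 8 for the strain difference between slides. Without background correction B. clausii gave 3. The processed signals and the deposited value table each gave 0 with B. clausii, 0 with B. bifidum, 5 for the ratio between slides and 1 for the strain difference between slides. Median centring gave 0 with B. clausii, 14 with B. bifidum, 3 for the ratio between slides and 0 for the strain difference between slides, and it reversed the slide difference of Hist2h3c1 (-0.30), Hist1h4a (-0.16), Hist1h4f (-0.26) and Hist2h4 (-0.27). A stricter filter on dim probes gave 13 with B. clausii, and no filter 5 for the strain difference between slides. An intensity trend with robust eBayes, or a fit of only the strains compared, gave 0 with B. clausii and 0 with B. bifidum. Slide 2 alone gave 23 with B. clausii, against 48.1% of all probes, 23 with B. bifidum, against 29.7%, and 12 between them, against 20.5%. Slide 1 holds only 1 array of either strain, with member medians of -0.22 for B. clausii and -0.24 for B. bifidum. Over the settings other than leaving out one array, calls among all probes ran from 0 to 13762 with B. clausii and from 0 to 8502 with B. bifidum. They ran from 3056 to 6055 for the ratio between slides and from 0 to 4743 for the strain difference between slides. Member counts given here without a share of all probes follow the setting and are no result about the histone genes. With the slide as a block the counts were 24 with B. clausii, 14 with B. bifidum, 4 with L. acidophilus and 2 between B. clausii and B. bifidum. With the replicate block, which pairs arrays by number, they were 23 with B. clausii, 16 with B. bifidum, 9 with L. acidophilus, 3 for the ratio and 4 for Cy3 between slides. Cy3 gave 1 minus the array median and 4 minus its 75th percentile. Leaving out one array gave 0 to 22 with B. clausii, 0 to 10 with B. bifidum, 0 with L. acidophilus, 0 to 9 between B. clausii and B. bifidum, 7 to 15 for the ratio, 5 to 21 for Cy3 and 2 to 7 for the strain difference between slides, which could not be fitted without B. clausii or B. bifidum replicate 3. The highest with B. clausii, with B. bifidum, between them and for Cy3 came without B. clausii replicate 3. Of the values of single probes under the alternatives, 917 kept direction and side of the threshold, 242 no longer passed, 47 newly passed, 4 reversed with a call and 21 changed sign without one; causes were not tested beyond fewer arrays or probes. Spots not well above background in some channel limit the ratios of Hist1h1a, Hist1h1b, both Hist1h1d probes, Hist1h1t, Hist1h2ab, Hist1h2ae, Hist1h2bq and Hist1h3a on some arrays, and saturated spots those of Hist1h2aa, Hist1h2af A_52_P165633 and Hist1h2ao.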
